A study of Rattus norvegicus with 20 samples.

Results

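Mgp, Svs5 and Cpa1 encode 3 secreted proteins whose transcripts climbed steeply in the embryonic rat testis. They were chosen by the measured values themselves, for large rises outside steroidogenesis between embryonic days 13 and 16 (E13 and E16) in vehicle testes. There their rises ranked 2 (Mgp), 6 (Svs5) and 8 (Cpa1) of 22526 tested probe sets. Mgp was also picked for its difference by E14. The vehicle time course of these genes is therefore given below as a description, without a test. Every probe set annotated to the 3 symbols was taken, which gave 1 probe set per gene, or 3 of the 31042 probe sets that are not array controls and 3 of 14217 genes. Agreement between probe sets of a gene could therefore not be examined.

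Matrix Gla protein, the product of Mgp, is a small extracellular protein whose glutamates are carboxylated with vitamin K. It inhibits calcification of cartilage and arteries and binds bone morphogenetic proteins (BMPs), and it is made by chondrocytes, smooth muscle cells and fibroblasts. Svs5 encodes a seminal vesicle secretory protein. In adult rodents the proteins of this family are made under androgen control, form the copulatory plug and are encoded next to each other beside genes of the whey acidic protein (WFDC) type. Cpa1 encodes carboxypeptidase A1, a zinc protease that the acinar cells of the pancreas secrete as a zymogen and that removes aromatic and aliphatic residues from the C-terminus of peptides.

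Arrays were hybridized with RNA from Sprague-Dawley testes in 10 groups of 2. In utero, pregnant dams were injected daily from E8 with vinclozolin at 100 mg/kg, or with DMSO alone, through E14 at the latest, and testes were taken at E13, E14 or E16, giving a vinclozolin and a vehicle group at each day. Vinclozolin is a fungicide whose metabolites block the androgen receptor. In culture, E13 gonads were explanted with the mesonephros attached and grown for 3 days. The 4 culture groups received vinclozolin (50 µM, dissolved in DMSO), DMSO alone, the pharmaceutical androgen receptor antagonist flutamide (0.5 µM, dissolved in ethanol) or ethanol alone. The mesonephros was removed before RNA was extracted, and the treated and control gonads were the opposite sides of the same embryos. The groups share strain and the male sex read from a PCR for Sry. Arrays of a group are called biological replicates, without a statement on whether animals were pooled. The p-values therefore reflect only how far arrays of the same group lie apart, taken over all 10 groups, which may be technical. The main fit did not pair the cultured gonads by embryo.

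Values are MAS5 signals as deposited, whose trimmed mean was nearly the same within each of 3 sets. It was 209.1 to 209.4 on the 12 arrays in utero, 217.1 to 217.2 on the 4 from vinclozolin and DMSO cultures and 106.6 to 106.7 on the 4 from flutamide and ethanol cultures. A signal under the 40th percentile of its array (26.5 to 42.1) is called low here, since no detection calls were used. The beta-actin probe sets at the 3′ and 5′ end, whose ratio grows as RNA degrades, gave ratios of 9.08 to 11.1 in the flutamide set, 2.67 to 3.90 in the vinclozolin culture set and 1.73 to 3.47 in utero. The E13 arrays numbered 1 stood apart, with the X-inactivation transcript Xist at 896 with vinclozolin and 758.6 with vehicle, against 17.9 and 20.4 on the E13 arrays numbered 2. Amh, the Sertoli cell hormone gene, read 372.4 with vinclozolin and 106 with vehicle on the E13 arrays numbered 1, against 1102.2 and 1484.7 on those numbered 2, and up to 5795.5 elsewhere. Xist was also 489.9 on E14 vinclozolin replicate 2 (32.0 on replicate 1), 174.9 and 184.4 on the E14 vehicle arrays, 112.8 on culture vinclozolin replicate 2 and 168.2 to 211.9 in the flutamide set. The Y-linked gene Eif2s3y read 668.3 to 3495.7 over all 20 arrays, with 2912.9 and 2363.1 on the E13 arrays numbered 1. On the E14 arrays it read 902.6 to 1248.9, against 2363.1 to 3495.7 on the arrays of E13 and E16. These values put the tissue or sex of the E13 arrays numbered 1 in doubt, although the label gives male testis. The sex of the tissue on the E14 arrays, with their lower Eif2s3y, was not tested, and these arrays were kept. The differences of the 3 genes between E13 and E16, and those with vinclozolin at E13, are therefore also given without the E13 arrays numbered 1. So is the change of Mgp by E14. These fits keep 1 array in each E13 group, so any SE given with them draws on the spread within the other groups. The shares of a rise covered by E14 or in culture use all E13 arrays.

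Svs5 lies on chromosome 3 (173415521 to 173417131 in GRCr8), Cpa1 on chromosome 4 (60224801 to 60230928) and Mgp on the same chromosome at 171497472 to 171500888. No promoter window was available for Mgp. The 250 bases before the annotated start of Svs5 and of Cpa1 are shown. They come from the RefSeq promoter table on build GRCr8, both on the plus strand. Capitals mark a TATA box (TATAAA, gene strand), a half-site of the androgen receptor (AGAACA, either strand) and the site of NR5A1, the nuclear receptor that controls steroidogenic genes (AAGGTCA, either strand).
Svs5, chr3:173415271-173415520: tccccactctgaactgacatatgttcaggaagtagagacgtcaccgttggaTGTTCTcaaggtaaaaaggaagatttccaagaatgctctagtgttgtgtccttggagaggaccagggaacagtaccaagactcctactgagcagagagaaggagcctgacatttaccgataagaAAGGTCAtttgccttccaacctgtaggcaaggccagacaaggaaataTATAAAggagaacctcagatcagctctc
Cpa1, chr4:60224551-60224800: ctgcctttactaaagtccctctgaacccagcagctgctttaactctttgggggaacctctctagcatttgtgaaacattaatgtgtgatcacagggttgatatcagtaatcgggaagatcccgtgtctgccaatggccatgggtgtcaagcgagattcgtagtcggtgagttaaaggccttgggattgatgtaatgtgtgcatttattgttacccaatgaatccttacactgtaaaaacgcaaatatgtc
The Svs5 window held the TATA box 28 to 23 bases before the start, the NR5A1 letters 75 to 69 bases before it and the androgen receptor half-site on the other strand 199 to 194 bases before it. The Cpa1 window held none of these letters. Among all 33469 promoter windows of this length, 8.06% held TATAAA on the gene strand, 17.5% held AGAACA and 3.99% held AAGGTCA on either strand, and no motif overlapped another in the Svs5 window.

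Mgp rose in both intervals, E13 to E14 and E14 to E16, in vinclozolin testes, whose arrays did not serve to choose the genes. Its signal was 40.7 and 91.4 at E13, 274.9 and 218.6 at E14 and 2614.2 and 2472.6 at E16. The 3 ages did not overlap, and on the log2 scale the E13 arrays lay the farthest apart. The rise was 1.74 between E13 and E14 on the scale of log2(signal + 16) (SE 0.31, limma adjusted p = 0.0024), 3.29 between E14 and E16 (SE 0.31, limma adjusted p = 8.41e-06) and 5.03 between E13 and E16 (SE 0.31, limma adjusted p = 7.7e-08). The change between E13 and E16 corresponds to 32.8-fold, with a 95% interval of 20.9 to 51.5. Without the E13 arrays numbered 1 it was 4.57, and the change by E14 was 1.28, with 1 array left in each E13 group. Leaving out 1 array at a time, the change by E14 ranged from 1.28 to 2.20. Vehicle testes, which chose the gene, gave 27.4 and 73.5 at E13, 331.3 and 202.4 at E14 and 3552.9 and 3411.1 at E16, a difference of 5.81 between E16 and E13. E13 vehicle replicate 1 was the 1 in utero array on which Mgp was low in the sense above.

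Svs5 was low on all 8 arrays of E13 and E14 and high on all 4 arrays of E16. In vinclozolin testes it read 2.2 and 2.2 at E13, 13.5 and 2.5 at E14 and 1111.5 and 971.4 at E16. The E14 values lay within the low range of the array, and the E16 values stood at the percentiles 94.5 and 93.5 of their arrays. The difference was 0.36 between E13 and E14 (SE 0.39, limma adjusted p = 0.574), and the rise was 5.50 between E14 and E16 (SE 0.39, limma adjusted p = 3.89e-07) and 5.86 between E13 and E16 (SE 0.39, limma adjusted p = 1.45e-07). Because the early values are low, the size of this rise depends on the pseudocount and has no firm upper value. It was 8.34 with a pseudocount of 1, 4.06 with a pseudocount of 64 and 4.35 when low values were raised to the 40th percentile of their array, each past the threshold, and 5.86 (SE 0.48) without the E13 arrays numbered 1. Vehicle testes gave 2.4 and 9.2 at E13, 1.3 and 12.8 at E14 and 839.8 and 989.5 at E16.

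Cpa1 was present above the low range at every age, and it rose between E14 and E16. In vinclozolin testes its signal was 156 and 184.8 at E13, 220.3 and 233.9 at E14 and 8859.2 and 8220.6 at E16. The arrays of E13 and E14 lay close together, and those of E16 stood at the percentile 99.6 of their arrays. The difference was 0.39 between E13 and E14 (SE 0.36, 95% interval -0.38 to 1.15, limma adjusted p = 0.506), and the rise was 5.14 between E14 and E16 (SE 0.36, limma adjusted p = 3.89e-07) and 5.52 between E13 and E16 (SE 0.36, limma adjusted p = 1.39e-07). The change between E13 and E16 was 46.0-fold, with an interval of 27.0 to 78.3, and 5.41 (SE 0.43) without the E13 arrays numbered 1. Vehicle testes gave 207.9 and 131 at E13, 77 and 198.4 at E14 and 3527.7 and 6240.3 at E16, and the pair at E16 differed more than the vinclozolin pair did.

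**Figure D1:**
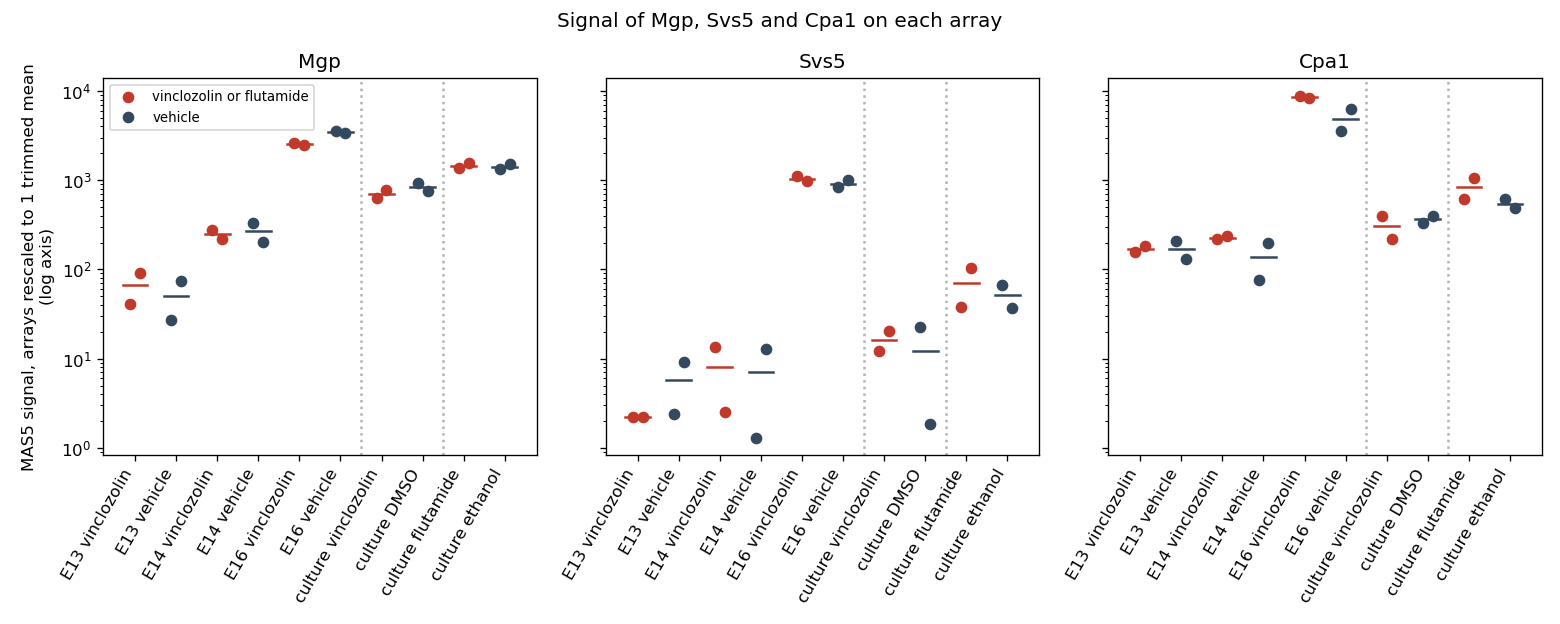
MAS5 signal of Mgp, Svs5 and Cpa1 on each of the 20 arrays, rescaled to 1 trimmed mean and drawn on a log axis. Red points are vinclozolin or flutamide arrays, dark points are vehicle arrays, and short lines are means of 2 arrays. Mgp is already higher at E14 (218.6 and 274.9 with vinclozolin, against 40.7 and 91.4 at E13), Svs5 and Cpa1 are high at E16, and of the 3 genes Mgp lies closest to its E16 level in culture.

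All 3 rises between E13 and E16 passed in vinclozolin testes, where 6.26% of the 22526 probe sets tested passed, 3.56% higher and 2.70% lower at E16. Ordered by size, they were the fourth (Svs5), the fifth (Cpa1) and the sixth (Mgp) of all tested probe sets, after Cyp17a1, Insl3 and Cyp11a1 of the Leydig cell. Between E13 and E14, Mgp was 1 of the 7.71% that rose, and all 3 were among the 13.2% that rose between E14 and E16. By E14, Mgp had covered 34.6% of its log2 rise to E16 in vinclozolin testes and 36.9% in vehicle testes. Svs5 had covered 6.15% with vinclozolin and 0.953% with vehicle, and Cpa1 6.99% with vinclozolin and -7.70% with vehicle. The difference in onset between the genes was not tested. In whole testes, more cells of a type and more RNA per cell cannot be told apart.

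In the 3-day cultures, Mgp stood nearer to its E16 level than Svs5 or Cpa1 did. The arrays of the culture sets were scaled apart from the in utero arrays, so the following levels were rescaled to 1 trimmed mean and are not tested. The shares below are counted on the E13 and E16 vehicle arrays, which also chose the 3 genes for low E13 and high E16 values. Mgp read 634.2 and 776.3 with vinclozolin and 933.2 and 763.1 with DMSO, and 1363 and 1537 with flutamide and 1319 and 1514 with ethanol. All 8 culture arrays were above every E13 and E14 array and below every E16 array. DMSO cultures differed from E13 vehicle testes by 3.79 on the log2 scale, which is 65.1% of the difference between E16 and E13 vehicle testes, and ethanol cultures differed by 4.52, or 77.8%.

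Svs5 stayed low in most cultures. Its rescaled signal was 12.34 and 20.15 with vinclozolin and 22.66 and 1.83 with DMSO, and all 4 arrays were low in the sense above. With flutamide it was 37.69 and 103.3, and with ethanol 67.11 and 37.29, and flutamide replicate 2 and ethanol replicate 1 were above the low range. The lowest E16 array, at 839.8 as deposited, lay above all of them. DMSO cultures had covered 5.26% of the log2 difference between E13 and E16 vehicle testes, and ethanol cultures 30.0%, both counted from values in or near the low range.

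Cpa1 was above its E13 level and below its E16 level in culture. The rescaled signal was 391.7 and 216.4 with vinclozolin and 329 and 396.8 with DMSO, and 621.2 and 1058 with flutamide and 610.3 and 481 with ethanol. Every culture array exceeded every E13 array, of which the highest read 207.9, and lay below every E16 array. The share of the log2 difference covered was 22.5% in DMSO and 34.5% in ethanol cultures. All 3 genes were higher after rescaling in the ethanol cultures than in the DMSO cultures. The 2 sets also differ in the beta-actin ratio given above and in sex-linked signals. As deposited, on the separate scales given above, Xist read 168.2 and 203 with ethanol and 5.2 and 5.4 with DMSO. Eif2s3y read 672.4 and 708.3 with ethanol and 3319.7 and 3115.1 with DMSO. The part of these differences in the higher values of the 3 genes was not tested.

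The fetal Leydig cell genes that headed the in utero rises were nearer to their E16 level in the same cultures than Svs5 and Cpa1. The log2 share covered in DMSO cultures was 66.5% for Cyp17a1, the 17-alpha-hydroxylase of androgen synthesis, 69.6% for Cyp11a1, the side-chain cleavage enzyme, and 60.5% for Insl3, the hormone of testis descent. In ethanol cultures these shares were 73.7%, 90.5% and 63.5%. Of the 15 other probe sets that rose at least 8-fold between E13 and E16 in vinclozolin testes, the median share was 52.7% in DMSO and 54.4% in ethanol cultures, and 5 had covered less than 25% in each. In DMSO the lowest shares belonged to a probe set without a single gene name (-92.6%) and to the globin genes Hbb (-86.8%) and Hba-a3 (-61.7%). Mgp lay above 10 of the 15 in DMSO and above 12 in ethanol, Svs5 above 4 and 5, and Cpa1 above 5 in both.

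**Figure D2:**
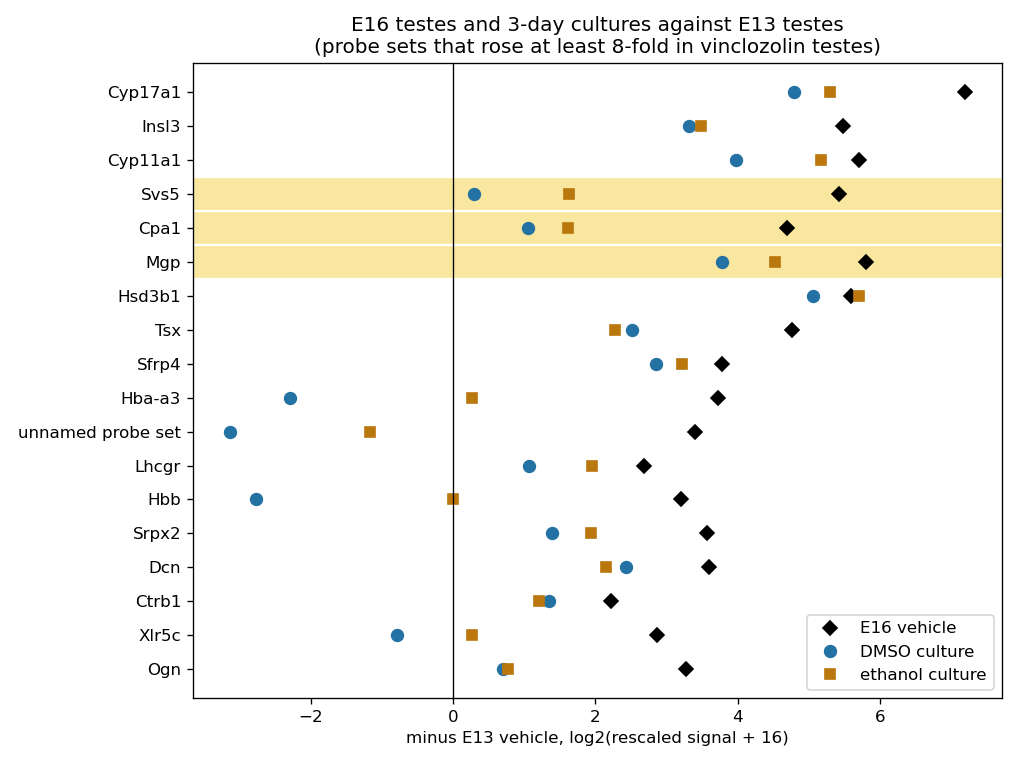
Differences from E13 vehicle testes on the scale of log2(rescaled signal + 16), for the 18 probe sets that rose at least 8-fold in vinclozolin testes, in order of that rise. Diamonds are E16 vehicle testes, circles DMSO cultures and squares ethanol cultures, each the mean of 2 arrays, and the 3 genes are shaded. Mgp lies at 3.79 and 4.52 in the cultures, Svs5 at 0.29 and 1.63 and Cpa1 at 1.06 and 1.62.

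No response of the 3 genes to an antiandrogen passed the threshold, in utero or in culture. Over all probe sets, 0% passed at E13 and E16, on the mean of the stages and in both cultures, and 0.00444% (1 probe set) at E14. At an unadjusted p under 0.05 these counts were 402 at E13, 1239 at E14, 1506 at E16, 923 for the mean, 610 for vinclozolin in culture and 494 for flutamide. The E13 and E16 vehicle arrays also chose the genes for low E13 and high E16 values, which bears on the differences at those ages, on the mean of the 3 stages and on any comparison of the stages, and not on the E14 or culture differences of Svs5 and Cpa1.

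Cpa1 was higher with vinclozolin on both arrays at E14 and at E16. At E16 it read 8859.2 and 8220.6 with vinclozolin, against 3527.7 and 6240.3 with vehicle, a difference of 0.86 (SE 0.36, 95% interval 0.09 to 1.63, unadjusted p = 0.030, limma adjusted p = 0.687). At E14 it read 220.3 and 233.9 with vinclozolin, against 77 and 198.4 with vehicle, a difference of 0.78 (SE 0.36, interval 0.02 to 1.55, unadjusted p = 0.0458, limma adjusted p = 0.888). At E13 the difference was 0.03 (SE 0.36), or 0.45 (SE 0.50) without the E13 arrays numbered 1, and over the 3 stages it averaged 0.56 (SE 0.21, interval 0.12 to 1.00, unadjusted p = 0.0163, limma adjusted p = 0.998). Arrays of the groups did not overlap for 39.2% of probe sets at E16 and 27.1% at E14. Leaving out 1 array at a time, the E14 difference ranged from 0.18 without vehicle replicate 1 to 1.39 without vehicle replicate 2, and the E16 difference from 0.45 without vehicle replicate 1 to 1.27 without vehicle replicate 2.

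Of 9 Leydig cell genes, 0 passed between vinclozolin and vehicle at E16, where 0% of all probe sets passed. Their median difference was 0.645 (0.0412 for all probe sets). The summed rescaled signal of these genes was 25550 and 23790 with vinclozolin, against 14730 and 23000 with vehicle, and vehicle replicate 1 was also the array with the lower Cpa1. Cyp17a1 read 7448 and 6601.3 with vinclozolin, against 2657 and 6521.8 with vehicle, while the mean of Hsd17b3, a testosterone-forming enzyme gene, was 373.9 with vinclozolin and 392.5 with vehicle. The part of the Leydig cell genes in the Cpa1 difference was not tested.

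Mgp was lower with vinclozolin at E16, and the 95% interval of the fit included 0. Its signal was 2614.2 and 2472.6 with vinclozolin, against 3552.9 and 3411.1 with vehicle (-0.45, SE 0.31, 95% interval -1.10 to 0.20, limma adjusted p = 0.828). The arrays did not overlap, as was the case for 39.2% of all probe sets at E16. The SE draws on the spread within all 10 groups. For Mgp the log2 SD was 0.056 with vinclozolin and 0.041 with vehicle at E16, and 0.65 and 0.74 at E13. The differences were 0.32 at E13 (SE 0.31, or 0.26 without the E13 arrays numbered 1), -0.08 at E14 (SE 0.31) and -0.07 for the mean of the stages (SE 0.18, interval -0.44 to 0.31). Svs5 differed by -0.24 at E13 (-0.47 without those arrays), 0.07 at E14 and 0.19 at E16 (SE 0.39 each), and by 0.00295 on average (SE 0.23, interval -0.47 to 0.48).

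In culture, vinclozolin and its DMSO control differed by -0.26 for Mgp (SE 0.31, interval -0.91 to 0.39), 0.29 for Svs5 (SE 0.39, interval -0.53 to 1.12) and -0.29 for Cpa1 (SE 0.36, interval -1.06 to 0.47). Flutamide and its ethanol control differed by 0.03 for Mgp (SE 0.31, interval -0.62 to 0.69), 0.23 for Svs5 (SE 0.39, interval -0.60 to 1.05) and 0.56 for Cpa1 (SE 0.36, interval -0.21 to 1.32). The Cpa1 arrays read 316.4 and 538.6 with flutamide, against 311 and 245.1 with ethanol, and did not overlap, as was the case for 38.1% of all probe sets. Limma adjusted p-values of these 6 differences were 0.9999 or above. Doses and vehicles differ between the 2 compounds, and their effects were not set against each other.

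**Figure D3:**
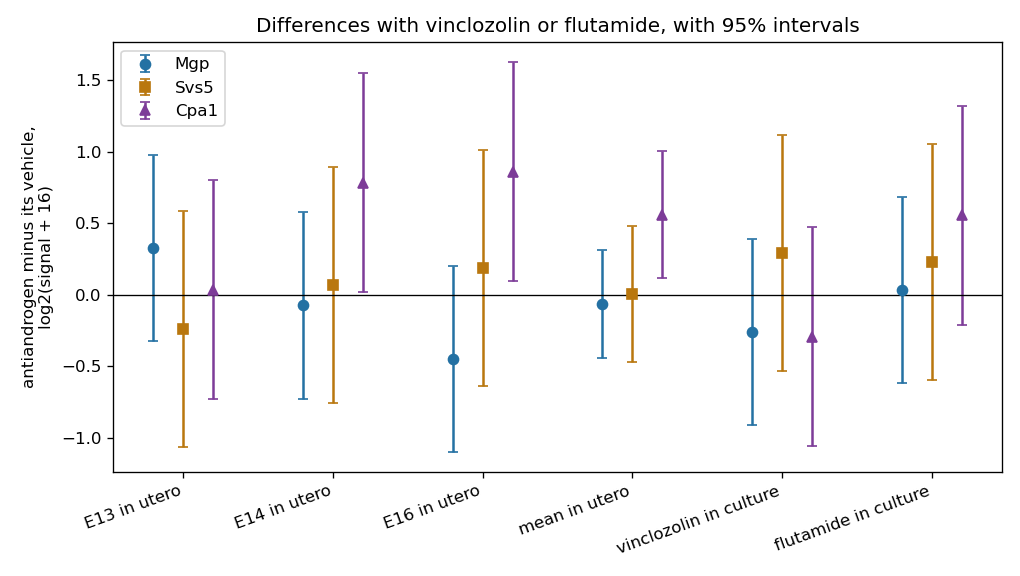
Difference between vinclozolin or flutamide and the matching vehicle on the scale of log2(signal + 16) for Mgp (circles), Svs5 (squares) and Cpa1 (triangles), with 95% intervals from the fit (2 arrays per group). The intervals of Cpa1 at E14, at E16 and for the in utero mean lie above 0 before adjustment for the number of probe sets, and no difference passed after it.

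Over all 10 groups, the order of the rescaled levels of Mgp was E16, flutamide set, vinclozolin culture set, E14 and E13. Within each of these pairs except E16, the arrays of the 2 neighbouring groups overlapped, and between the pairs they did not. At E16, arrays of the groups did not overlap for 39.2% of probe sets. For Svs5 the E16 groups overlapped with each other and lay 2.85 log2 units above the next array, and from the vinclozolin cultures down to E13 vehicle each group overlapped with the next. Svs5 in E13 vinclozolin testes (2.2 and 2.2) lay just under E13 vehicle (2.4 and 9.2), all of them low values, and arrays of the groups at E13 did not overlap for 24.4% of probe sets. For Cpa1 the E16 groups came first and the 4 culture groups next. The remaining 4 groups, E14 vinclozolin, E13 vinclozolin, E13 vehicle and E14 vehicle, followed, of which the first overlapped with the vinclozolin cultures and not with the second, and the others overlapped with their neighbour.

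The genes most like each member over the 12 in utero arrays were found by Pearson's r of the log2 values. These correlations are descriptions, since all genes that step up at E16 share the same difference between ages. Svs5 and Cpa1 had an r of 0.984 with each other, Mgp and Svs5 of 0.929 and Cpa1 and Mgp of 0.891. The closest to Cpa1 were Cyp17a1 (0.992), the cholesterol carrier gene Star (0.985), Svs5, the natriuretic peptide gene Nppc (0.980) and the luteinizing hormone receptor gene Lhcgr (0.977). The closest to Svs5 were the cytochrome oxidase subunit gene Cox7b2 (0.992), Cyp17a1 (0.990), Cyp11a1 (0.988), Cpa1 and the ferredoxin gene Fdx1 (0.984).

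Culture values of these genes, which the measure of likeness did not use, covered a wide range. Star had covered 106% of its log2 rise in DMSO and 125% in ethanol cultures, and Fdx1 89.0% and 105%. Cox7b2 stood at -0.21% and 34.0%, close to Svs5, and Nppc at 44.0% and 45.4%. The genes closest to Mgp were C1qtnf7 (0.993), the endoplasmic reticulum retention receptor gene Kdelr3 (0.980), Srpx (0.977), the X-linked testis gene Tsx (0.976) and the stanniocalcin gene Stc2 (0.974), and their shares ran from 29.9% to 73.0% in DMSO and from 33.2% to 58.9% in ethanol.

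The seminal vesicle genes next to Svs5 were low on every array. On chromosome 3, Svs6, Svs3a and Svs4 lie on the same side of Svs5 within its 5 nearest annotated genes, and none of them reached the 40th percentile on any of the 20 arrays. At E16 over both groups, Svs6 read 1.7 to 12.8, Svs3a 2.0 to 10.6 and Svs4 17.2 to 25.8. Of 22 listed genes of seminal vesicle, epididymal and prostate secretion, 11 were on the array and 2 were tested, and neither passed. Those were Slpi, a protease inhibitor gene that lies near Svs5 (-0.83, SE 0.55), and Eppin, a sperm-binding protease inhibitor gene (0.35). Semg1 (1.2 to 11 at E16) and the prostate gene Pbsn (0.8 to 1.8) were low on every array. The list of WFDC genes leaves out Slpi and Eppin. Of its 4 tested genes, 2 rose between E13 and E16 in vinclozolin testes, against 3.56% of all probe sets. They were Wfdc1 (1.58, SE 0.30, limma adjusted p = 0.00338) and Wfdc6a (1.43, SE 0.26, limma adjusted p = 0.00247).

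Pancreatic digestive enzymes moved in both directions. Of 32 listed, 24 were on the array and 11 were tested, of which 3 rose and 1 fell between E13 and E16 in vinclozolin testes, with a list median of 0.50. Over all probe sets 3.56% rose, 2.70% fell and the median was 0.0084. Ctrb1, a chymotrypsinogen gene, rose by 3.10 (SE 0.49, limma adjusted p = 0.000846). Its mean signal at E16 was 198.2 with vinclozolin and 199.1 with vehicle, and at E13 it was 9.7 with vinclozolin and 20.5 with vehicle. Pla2g1b, the pancreatic phospholipase A2 gene, rose by 1.69 (SE 0.36), and Clps, the colipase gene, by 1.01 (SE 0.27). Cela3b, an elastase gene, fell by 1.60 (SE 0.24, limma adjusted p = 0.00062). The acinar transcription factor genes Ptf1a and Bhlha15 and the trypsinogen gene Prss1 were low on all 20 arrays, and the amylase gene Amy2a3 read 0.3 to 9.7 at E16. The summed rescaled signal of the 5 tested acinar marker genes was 398.3 to 500.6 at E16 and 456 to 478.9 at E13 with vinclozolin, and 269.1 to 544.7 at E16 and 392.3 to 411.7 at E13 with vehicle.

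Of 10 genes of the carboxypeptidase family and its inhibitors tested besides Cpa1, 2 rose, 1 fell and the median was 0.07, beside 3.56% higher, 2.70% lower and a median of 0.0084 over all probe sets. Aebp1, a carboxypeptidase-like matrix protein gene, rose by 1.12 (SE 0.27) and the mast cell carboxypeptidase gene Cpa3 by 0.996 (SE 0.27), while Cpm, a membrane-bound enzyme gene, fell by 2.66 (SE 0.23, limma adjusted p = 2.7e-06). Cpa4, which lies near Cpa1 in the carboxypeptidase cluster of chromosome 4, read 24.7 to 33 at E16, and Cpb1, the pancreatic carboxypeptidase B gene, 8.7 to 30.8. Both exceeded the 40th percentile on 1 of 20 arrays and were not tested. On the other side of Cpa1, Cep41 (-0.32, SE 0.26), the imprinted gene Mest (-0.17, SE 0.14) and Copg2 (0.11, SE 0.19) did not pass.

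Of the 10 nearest annotated genes around Mgp, 2 were tested. Both rose between E13 and E16 in vinclozolin testes, where 3.56% of all probe sets rose. Arhgdib rose by 0.91 (SE 0.19, limma adjusted p = 0.0062), and Art4, an ADP-ribosyltransferase gene, by 0.81 (SE 0.23, limma adjusted p = 0.0465). The machinery that carboxylates Gla proteins did not pass. Ggcx, the gamma-carboxylase gene, stood at -0.34, Vkorc1, the vitamin K epoxide reductase gene, at 0.59 (limma adjusted p = 0.0598) and Gas6, a Gla-containing receptor ligand gene, at -0.18. Of 9 tested genes of this list, 1 rose, beside the same 3.56% of all probe sets. It was the coagulation factor gene F10 (1.61, SE 0.29), whose mean signal with vinclozolin was 9.0 at E13 and 57.7 at E16. Bglap, the osteocalcin gene, and Ucma, the gene of a Gla-rich cartilage protein, were low on all 20 arrays.

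Of 12 tested genes of mineralization and BMPs, 1 rose and 0 fell between E13 and E16 in vinclozolin testes, with a median of 0.20, beside 3.56% higher, 2.70% lower and a median of 0.0084 over all probe sets. Ankh, a pyrophosphate transporter gene, rose by 0.76 (SE 0.18, limma adjusted p = 0.0144). Bmp2 stood at -0.06, Bmp4 at -0.77 (limma adjusted p = 0.108), Bmp7 at -0.34 and the osteopontin gene Spp1 at 0.33. Of 10 androgen-responsive genes tested, 1 rose, Sord, the sorbitol dehydrogenase gene (1.05, SE 0.25), beside the same 3.56%.

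**Figure D4:**
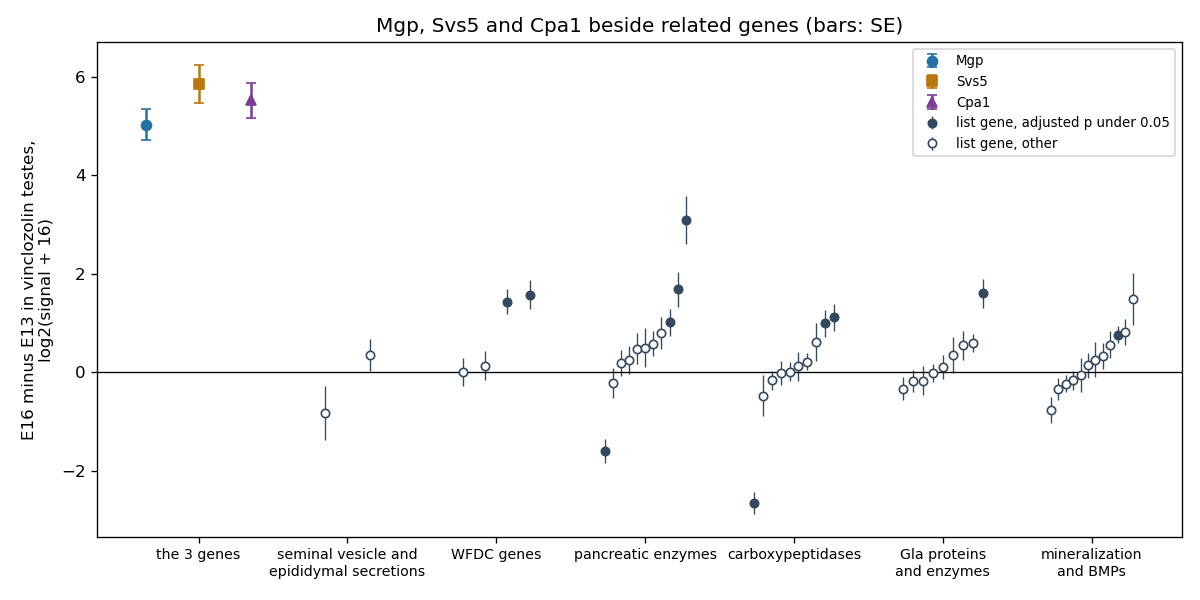
Difference between E16 and E13 in vinclozolin testes on the scale of log2(signal + 16), with SE bars, for the 3 genes and for every tested gene of 6 related lists. Filled points passed at an adjusted p under 0.05. The largest rise among the related genes is 3.10 (Ctrb1), against 5.03 to 5.86 for the 3 genes.

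Over all probe sets, 3.56% rose and 2.70% fell between E13 and E16 in vinclozolin testes, with a median of 0.0084. Among cell type markers, 9 of 9 Leydig cell genes rose, with a median of 3.50. Their summed rescaled signal was 23790 to 25550 at E16 with vinclozolin and 14730 to 23000 with vehicle, and at E13 it was 1173 to 1186 with vinclozolin and 1022 to 1031 with vehicle. At E14 it was 1410 to 1614 with vinclozolin and 1379 to 1842 with vehicle, in the vinclozolin culture set 8799 to 9631 with vinclozolin and 9688 to 9690 with DMSO, and in the flutamide set 14180 to 15600 with flutamide and 13880 to 14530 with ethanol. Of peritubular and smooth muscle genes 5 of 7 rose (median 1.45), and of interstitial stroma genes 5 of 9 rose (median 1.04). Of 6 erythroid genes 4 rose, with a median of 2.15, and their summed rescaled signal was 1390 to 3713 at E13 and 19480 to 20740 at E16 with vinclozolin, and 1126 to 6698 at E13 and 17050 to 31360 at E16 with vehicle. Of 6 cartilage genes 2 fell and 0 rose, among them Col2a1, the cartilage collagen gene (SE 0.39, limma adjusted p = 0.0274), while Mgp rose. The part of changes in cell number in the rises of the 3 genes was not tested.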

How the data were processed

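RNA from 20 testis samples was hybridized to 1-colour Affymetrix rat arrays. The authors deposited linear signal intensities, with MAS5, and also GCOS for the cultures, named in the submitters' processing notes. Other settings were not given in the sources used here. A trimmed mean without the outer 2% at each end was nearly equal within each set of arrays (209.1 to 209.4 in utero). Control probe sets (57) were left out. Probe sets at or above the 40th percentile on at least 2 arrays were tested, 22526 of 31042, and all 3 genes were among them. Genes were named from the platform annotation and RefSeq (GRCr8), which gave 1 symbol to 20826 probe sets, several to 436 and none to 9780.

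A model of log2(signal + 16) with a mean for each group was fitted by limma 3.58.1 (R 4.3.3) to all 20 arrays, with moderated errors and a variance trend (residual degrees of freedom 10). P-values are two-sided and adjusted by Benjamini-Hochberg over all tested probe sets (threshold 0.05). With 2 arrays per group, their number limits precision, and the median SE of a difference was 0.244. Named genes were the members, the 5 most correlated genes per member, up to 4 passing genes per list, and chromosomal neighbours. Other list genes were named after their values were seen. The probe set of highest mean stood for a gene. Members and lists were chosen with earlier results of these data known. The fit was tested on simulated data. Alternatives are given below.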

Additional observations from a re-analysis of the deposited data

How the results depend on the processing

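The rises of all 3 genes between E13 and E16 and between E14 and E16 in vinclozolin testes, and that of Mgp between E13 and E14, kept direction and threshold under quantile normalization, rescaling, pseudocounts of 1 and 64, other filters, raised low values, the arrays of the experiment alone, no trend, the replicate block, and without each array. No antiandrogen difference passed under any of them. For the replicate block, same-numbered arrays deviated together at E13 (r = 0.602), not at E14 (-0.0547), E16 (-0.112) or with flutamide (-0.000125), and at 0.115 in the vinclozolin culture, so the numbers were not taken as pairs. The block changed no call and gave Cpa1 at E16 an adjusted p of 0.431 (0.359 with a crossed E16 pairing, chosen after seeing the data).

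Differences near 0 changed sign. For Svs5 the in utero mean was -0.12 with a pseudocount of 1 and -0.073 without the E13 arrays numbered 1, and with low values raised its difference was 0.056 at E13 and -0.053 at E14. Without single arrays, vinclozolin differences ranged from -0.20 to 0.85 (Mgp) and -0.27 to 0.34 (Cpa1) at E13, from -0.41 to 0.26 (Mgp) and -0.30 to 0.43 (Svs5) at E14, and from -0.24 to 0.11 (Mgp) and -0.12 to 0.13 (Svs5) for the mean. In culture they ranged from -0.28 to 0.86 (Svs5) and -0.70 to 0.11 (Cpa1) with vinclozolin, and from -0.064 to 0.13 (Mgp) and -0.25 to 0.71 (Svs5) with flutamide. The cause was not tested.

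Of all probe sets, 1410 passed between E13 and E16 in vinclozolin testes, against 654 with the in utero arrays alone, 619 without the E13 arrays numbered 1, and 463 to 855 without single arrays. Between E13 and E14, 3641 passed, against 1890 with the in utero arrays alone, 2177 without the E13 arrays numbered 1, and 663 (without E14 vinclozolin replicate 1) to 4406 without single arrays. Between E14 and E16, 6030 passed, and 2791 to 6031 without single arrays. For the antiandrogens, where 0 or 1 passed, at most 5 passed with all arrays kept, 272 at E14 without vehicle replicate 2 and 28 at E16 without vehicle replicate 2. No second probe set of a gene existed to try.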
